A study of Homo sapiens with 7 samples.

Results

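The genes described here are the 37 genes that human mitochondria carry on their own circular DNA, taken as every gene that the deposited table of exon bins places on the chromosome MT. They are 13 mRNA genes, 2 rRNA genes and 22 tRNA genes among the 62238 genes counted. RNA was sequenced from 3 cultures of MEG-01, an established human leukemia cell line that carries markers of the megakaryocyte lineage. The control is the culture whose labels name no knockdown, and the other 2 are stable lines in which RBM15, an RNA binding protein, was knocked down with the hairpin shRBM15#1 or the hairpin shRBM15#2. All 3 carried lentiviral transgenes, were at passage 5, were grown in RPMI1640 with 10% FBS and were harvested in exponential phase, and each line is 1 culture with 1 library. The labels do not say which transgene the control carried.

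Mitochondrial DNA encodes only a small part of the proteins of mitochondria, all of them core subunits of the respiratory chain or of ATP synthase, together with the rRNAs and tRNAs needed to translate them. Both strands are transcribed into long precursors, and the tRNAs that lie between most of the other genes are cut out to release the mRNAs and rRNAs. Most of the mRNAs then receive poly(A) tails, and their levels are set by RNA stability as well as by transcription. Nuclear genes supply the polymerase, the processing enzymes, the ribosomal proteins and most of the subunits.

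Most mitochondrial genes touch or overlap their neighbours, which bears on how their reads could be counted. On the GRCh37 build, the lengths of the 37 bins, 1 for each gene, add up to 15306 bases, beside 16569 bases of the mitochondrial genome. A few bases that MT-TI and MT-TQ share on opposite strands lie in both bins. Apart from the 1122 bases of the control region between MT-TP and MT-TF, the longest gap between neighbouring genes is 31 bases. The bins of 7 genes are shorter than the gene, since bases that a gene shares with a neighbour on the same strand are in no bin. The longest such stretch is the overlap of MT-ATP8 and MT-ATP6, 46 bases at MT:8527-8572 on the plus strand. It is shown with the start codon of MT-ATP6 in capitals, because reads confined to these bases are missing from the counts of both genes.
MT-ATP8 and MT-ATP6 overlap: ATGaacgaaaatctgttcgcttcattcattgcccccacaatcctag
The overlap of MT-ND4L and MT-ND4 is 7 bases long, at MT:10760-10766. Only 4 of the 22 tRNA genes had 30 or more reads over the 3 libraries, and their sequences are shown with the anticodon in capitals to identify them. MT-TF (MT:577-647, plus strand) and MT-TP (MT:15956-16023, minus strand), which carry phenylalanine and proline, border the control region, the long non-coding part of the genome. MT-TC (MT:5761-5826) and MT-TY (MT:5826-5891), both on the minus strand, carry cysteine and tyrosine, and MT-TC borders the gap of 31 bases.
MT-TF: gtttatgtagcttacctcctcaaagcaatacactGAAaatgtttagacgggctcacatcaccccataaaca
MT-TP: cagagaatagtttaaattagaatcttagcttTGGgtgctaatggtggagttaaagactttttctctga
MT-TC: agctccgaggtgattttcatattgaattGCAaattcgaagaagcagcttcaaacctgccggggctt
MT-TY: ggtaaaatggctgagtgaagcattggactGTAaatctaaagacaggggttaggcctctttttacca

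Reads on exon bins numbered 53230029 in the control, 41629454 in shRBM15#1 and 52458857 in shRBM15#2. RBM15 itself had 3970 reads in the control, 1957 in shRBM15#1 and 2121 in shRBM15#2, and its log2 fold change was -0.93 ± 0.23 (SE, adjusted p = 0.091 from edgeR's quasi-likelihood test). Of 11 megakaryocyte marker genes that could be matched, 7 had at least 1 CPM (reads scaled to the library total) in every library, among them ITGA2B, GATA1, TAL1 and FLI1, while GP9 and PF4 were below 1 in all 3. Of 8 markers of other lineages, only the epithelial gene EPCAM had at least 1 CPM in every library, at 69.6, 58.6 and 49.0.

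The mitochondrial genes took a larger share of the reads in both knockdown lines than in the control. They had 113244 reads in the control, which is 0.213% of the summed bin counts. The 95% exact binomial interval was 0.212% to 0.214%, for counting error only and with each count taken as a separate read. In the shRBM15#1 library they had 443928 reads, or 1.07% (1.06% to 1.07%), and in the shRBM15#2 library 185013 reads, or 0.353% (0.351% to 0.354%). The share was thus 5.01 times that of the control in shRBM15#1 and 1.66 times in shRBM15#2. The mRNAs supplied most of these reads, with 98416, 382507 and 154985 in the control, shRBM15#1 and shRBM15#2 libraries. The share was not tested between conditions, and the interval says nothing about variation between cultures.

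Other values moved between the libraries in the same order as the mitochondrial share. Reads that fell in no exon bin were 21.6% of all counts in the control file, 30.4% in shRBM15#1 and 21.9% in shRBM15#2. The 371 olfactory receptor genes, a nuclear family known for its expression in olfactory neurons and chosen here after the values had been seen, had 959 reads in the control, 2478 in shRBM15#1 and 1631 in shRBM15#2. In CPM this is 18.0, 59.5 and 31.1, and without the 10 receptor genes with the most reads it is 12.1, 49.1 and 23.6. At least 1 read was found in 282, 361 and 336 of these receptor genes, and in 43573, 51086 and 48339 of all genes. The 7 markers of other lineages without EPCAM summed to 1.71, 9.85 and 7.99 CPM, and CD14 alone gave 3.91 CPM in shRBM15#2. Of these, 7 were higher in shRBM15#1 and 6 in shRBM15#2 than in the control. Of the 24887 genes tested below, 12499 and 12436 were higher in these lines after normalization. EPCAM went the other way, and all 8 markers summed to 71.3, 68.5 and 57.0 CPM. The part of these differences between libraries in the mitochondrial result was not tested.

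**Figure D1:**
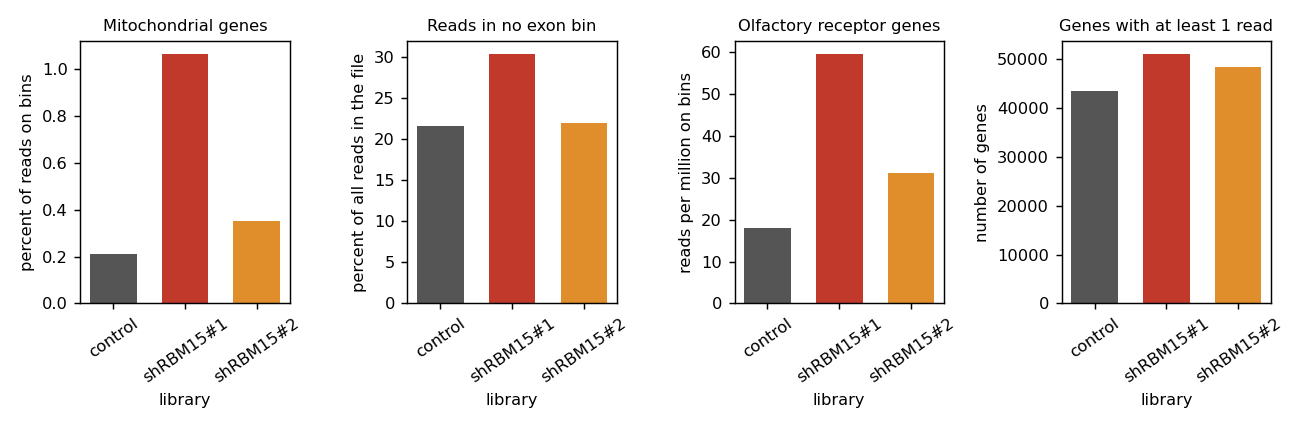
Bars give 1 value per library (control grey, shRBM15#1 red, shRBM15#2 orange) for the share of reads on bins that lie on mitochondrial genes, the share of all reads in no exon bin, the CPM on 371 olfactory receptor genes, and the number of genes with at least 1 read. In each panel shRBM15#1 is the highest and the control the lowest, from 0.213% to 1.07% for the mitochondrial genes and from 18.0 to 59.5 CPM for the receptor genes.

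Expression was tested with edgeR's quasi-likelihood test on reads summed per gene after TMM normalization, over the 24887 genes that reached 30 reads when the libraries were added up, and 19 mitochondrial genes passed this filter. A log2 fold change compares both knockdown lines with the control, and values of a single line compare 1 library with 1 library and have no test. Levels between genes are compared only per length, as RPKM (CPM per kb of bin, TMM-normalised). None of the 19 mitochondrial genes passed an adjusted p under 0.01, the limit at which 86 genes, or 0.346% of all genes tested, were called (0.0683% called as higher), and none passed 0.05 (background 1.74%). At the limit of 0.05, 3 passed with RLE size factors in place of TMM (MT-RNR2, MT-ND1 and MT-TF), 1 by DESeq2 (MT-ATP8) and 14 without the filter on low counts. The shares of all genes that passed 0.05 in these settings were not counted, so these numbers have no background to be read against. In edgeR's test with TMM and the filter, the smallest adjusted p of the 19 was 0.077, of MT-RNR2. At an unadjusted p under 0.05, 14 of the 19 were higher and none lower, against 9.61% higher and 9.17% lower (18.8% in all) of all genes tested. By the DESeq2 Wald test, which gave MT-TC and MT-TY no adjusted p, 0 of the 19 passed an adjusted p under 0.01, against 2.11% of all genes. With the same DESeq2 test 3 of the 19 passed an unadjusted p under 0.05, against 13.1% of all genes. The replicates in this test are the 2 knockdown lines, which have different hairpins, with 1 residual degree of freedom a gene. The edgeR fit also draws on the spread of the other genes tested, so an SE or p-value does not measure the spread of 1 gene by itself. The spread between control cultures was not measured, so the p-values speak only for these samples. Without the filter on low counts, 53542 genes were tested, 801 of them (1.5%) had an adjusted p under 0.01, and 11 mitochondrial genes were among these, all higher.

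All 19 genes were higher in the shRBM15#1 library than in the control, and 17 were higher in both lines, against 39.7% of all genes tested. The exceptions were MT-CO3 and MT-TC, which with shRBM15#2 had log2 fold changes of -0.06 and -0.002. The value with shRBM15#1 was above that with shRBM15#2 for each of the 19, against 51.7% of all genes tested and 29.4% of those whose reads added up to 1000 or more. Among the 15 mRNAs and rRNAs, 14 were at least 2-fold above the control in shRBM15#1 and 7 in shRBM15#2. Over all genes tested, 21.1% were at least 2-fold higher in shRBM15#1 and 13.5% in shRBM15#2, and over the 10211 genes whose reads added up to 1000 or more, which all 15 did, the shares were 2.34% and 2.9%, and 27.9% were higher in both lines. The median log2 fold change of the 13 mRNAs was 2.12, against 0.017 over all genes tested. In the single lines it was 2.78 in shRBM15#1 and 0.88 in shRBM15#2, against 0.005 and -0.001 over all genes tested. When the shRBM15#1 library was left out the median of the mRNAs was 0.93, and when the shRBM15#2 library was left out it was 2.84, both with no test. In RNA from whole cultures with 1 library each, more mitochondrial RNA per cell, more cells rich in it and differences between the libraries themselves cannot be told apart.

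**Figure D2:**
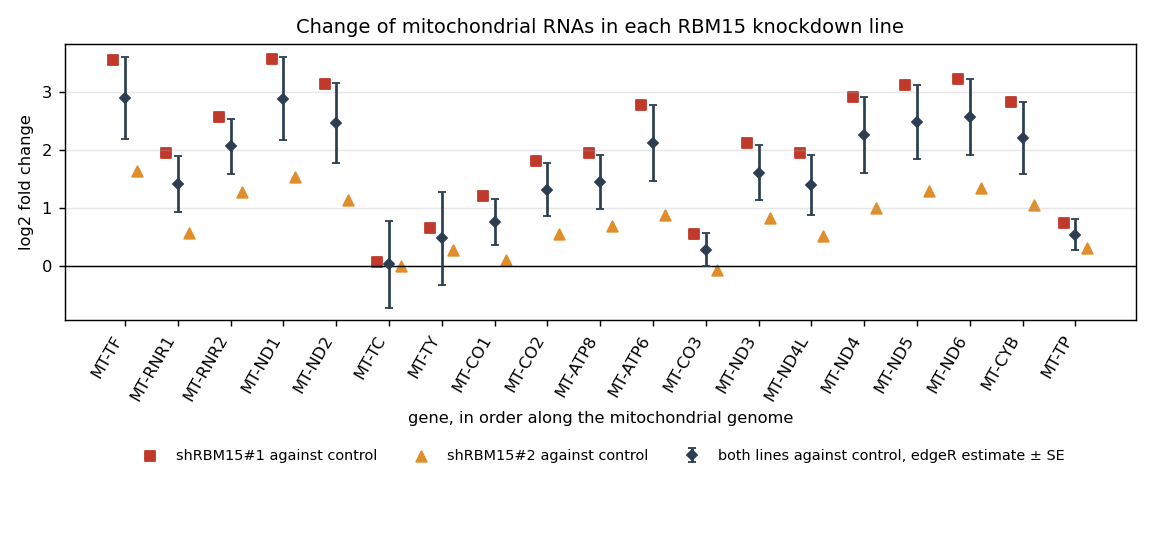
The log2 fold change against the control is plotted for the 19 tested mitochondrial genes in their order along the genome, as red squares for shRBM15#1, orange triangles for shRBM15#2 and dark diamonds with SE bars for the edgeR estimate of both lines. All red squares are above 0 and above the triangle of the same gene, and the lowest triangle is that of MT-CO3 at -0.06.

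The 7 mRNAs of complex I, the NADH dehydrogenase that passes electrons into the chain, included the mRNA with the largest fold. MT-ND1 (MT:3307-4262), a subunit of the membrane arm, had 2100 reads in the control, 22552 in shRBM15#1 and 6383 in shRBM15#2. Its level was 44.4 RPKM in the control, the lowest of the 13 mRNAs there, and 527 and 128 RPKM in the lines, 11.9-fold and 2.88-fold above the control. Its log2 fold change was 2.88 ± 0.72 (SE, adjusted p = 0.096 from edgeR's quasi-likelihood test, and between 3.6e-11 and 0.33 over the alternatives). MT-ND2, also in the membrane arm, had 3353, 26671 and 7796 reads in the control, shRBM15#1 and shRBM15#2 libraries, which is 8.79-fold and 2.21-fold more after normalization. MT-ND5 (MT:12337-14148), the largest membrane subunit, had 8916, 70041 and 23065 reads, and 8.68-fold and 2.45-fold differences. In these 3 genes both lines were above the control and shRBM15#1 was far above shRBM15#2.

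MT-ND4 (MT:10760-12137), another membrane subunit, had 7535 reads in the control, 51488 in shRBM15#1 and 15896 in shRBM15#2, or 7.55-fold and 2.00-fold. MT-ND4L, the small subunit that shares an mRNA with MT-ND4, had 852, 2970 and 1279 reads and differed less, by 3.85-fold and 1.42-fold. MT-ND3, a further small membrane subunit, had 1400, 5491 and 2618 reads and differed by 4.34-fold and 1.77-fold. The level of MT-ND4L was 0.535 times that of MT-ND4 in the control, 0.273 times in shRBM15#1 and 0.380 times in shRBM15#2. The bins of MT-ND4L (290 bases), MT-ND3 (346 bases) and MT-ATP8 (161 bases) are the shortest of the mRNAs, and the part of bin length in their values was not tested.

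MT-ND6 (MT:14149-14673) is the only mRNA gene on the minus strand. It had 2473 reads in the control, 20789 in shRBM15#1 and 6657 in shRBM15#2, differences of 9.29-fold and 2.55-fold (log2 fold change 2.57 ± 0.65, SE, adjusted p = 0.10 from edgeR's quasi-likelihood test). Its level in RPKM was close to those of its plus-strand neighbours in every library. It was 0.957, 1.02 and 0.996 times that of MT-ND5 and 0.828, 1.08 and 1.02 times that of MT-CYB in the control, shRBM15#1 and shRBM15#2 libraries. The libraries carried no strand information, so reads from MT-ND6 and reads from the opposite strand over the same bases cannot be told apart.

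MT-CYB (MT:14747-15887) encodes cytochrome b, the only subunit of complex III that mitochondria make themselves. It had 6492 reads in the control, 41787 in shRBM15#1 and 14146 in shRBM15#2. Its level was 115 RPKM in the control and 818 and 238 RPKM in the lines, 7.11-fold and 2.07-fold higher. Both lines were above the control, as for the complex I mRNAs.

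The 3 mRNAs of complex IV, cytochrome c oxidase, had the highest levels of the mRNAs in the control and the smallest folds of the mRNAs with shRBM15#1, while with shRBM15#2 the fold of MT-ND4L was below that of MT-CO2. MT-CO3 (MT:9207-9990), a core subunit, had 25522 reads in the control, 34010 in shRBM15#1 and 25825 in shRBM15#2. Its level was 659 RPKM in the control, the highest of the mRNAs, 970 RPKM in shRBM15#1 and 632 RPKM in shRBM15#2, and its log2 fold change was 0.28 ± 0.29 (SE, adjusted p = 0.64 from edgeR's quasi-likelihood test). The control lay between the 2 lines, so the direction was not shared. MT-CO1 (MT:5904-7445), the catalytic subunit that holds heme and copper, had 28703, 60074 and 32678 reads, 2.31-fold more with shRBM15#1 and 1.08-fold more with shRBM15#2. MT-CO2, which takes electrons from cytochrome c, had 6542, 20795 and 10074 reads, 3.51-fold and 1.46-fold more.

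Complex V, the ATP synthase, has 2 mitochondrial mRNAs that overlap in the stretch printed above. MT-ATP6, part of the proton channel, had 3708 reads in the control, 22994 in shRBM15#1 and 7177 in shRBM15#2, or 6.85-fold and 1.84-fold more. MT-ATP8, a small subunit of the membrane part, had 820, 2845 and 1391 reads, or 3.83-fold and 1.61-fold more. The level of MT-ATP8 was 0.871 times that of MT-ATP6 in the control, 0.487 times in shRBM15#1 and 0.763 times in shRBM15#2.

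The composition of the mitochondrial mRNA reads therefore differed between the libraries. MT-CO1 and MT-CO3 together held 55.1% of the reads on the 13 mRNAs in the control, 24.6% in shRBM15#1 and 37.7% in shRBM15#2. The share of MT-ND5 was 9.06%, 18.3% and 14.9%, and that of MT-ND1 was 2.13%, 5.90% and 4.12%. The highest mRNA exceeded the lowest by 14.8 times in the control, 4.24 times in shRBM15#1 and 7.48 times in shRBM15#2, but without MT-CO1 and MT-CO3 by 4.35, 3.87 and 3.34 times. The level of MT-CO3 was 6.62 times that of MT-ND5 in the control, 1.12 times in shRBM15#1 and 2.59 times in shRBM15#2.

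**Figure D3:**
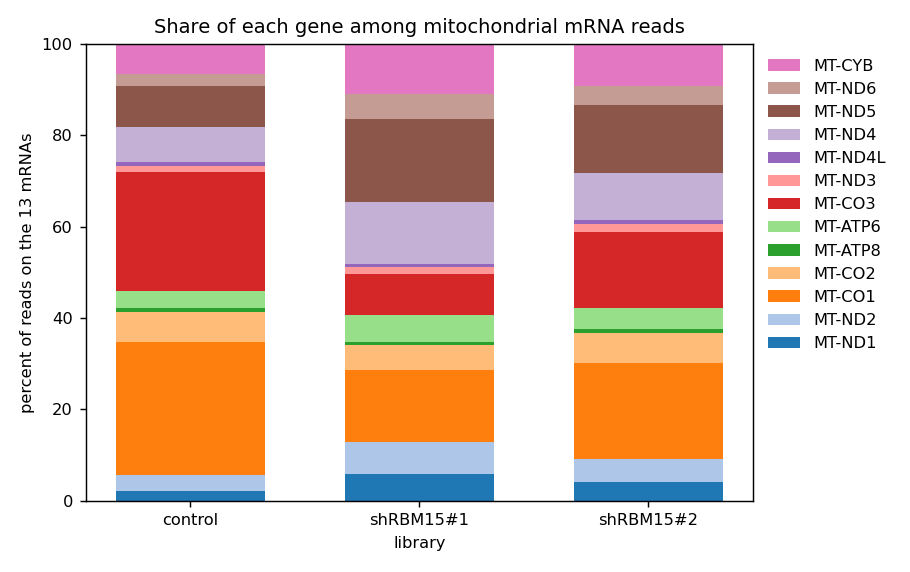
Stacked bars give the percent of the reads on the 13 mitochondrial mRNAs that each gene held in the control, shRBM15#1 and shRBM15#2 libraries. MT-CO1 and MT-CO3 (orange and red) hold 55.1% in the control, 24.6% in shRBM15#1 and 37.7% in shRBM15#2.

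The gain in RPKM of shRBM15#1 over the control ranged from 169 in MT-ND4L to 789 in MT-ND6 over the 15 mRNAs and rRNAs, a range of 4.66 times, while the folds ranged from 1.47 to 11.9, or 8.06 times. MT-CO3, with the smallest fold, gained 312 RPKM, more than MT-ND3 with 273, MT-ATP8 with 292 and MT-RNR1 with 296. MT-CO1 gained 494 RPKM, close to the 483 of MT-ND1, although their folds were 2.31 and 11.9. With shRBM15#2 the gains ran from -26.6 RPKM in MT-CO3 to 148 RPKM in MT-ND6, with a median of 83.6, while the folds spanned 3.00 times, so gains were the less even measure in that line. The 4 neighbouring genes MT-ND4, MT-ND5, MT-ND6 and MT-CYB lay between 818 and 885 RPKM with shRBM15#1, between 222 and 244 with shRBM15#2 and between 95.2 and 115 in the control. These ranges were not particular to them. With shRBM15#1 they also held MT-CO1 at 870, with MT-ATP6 just below at 810. With shRBM15#2 they held MT-RNR2 at 228, and in the control MT-RNR1 at 104 and MT-ATP8 at 103.

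**Figure D4:**
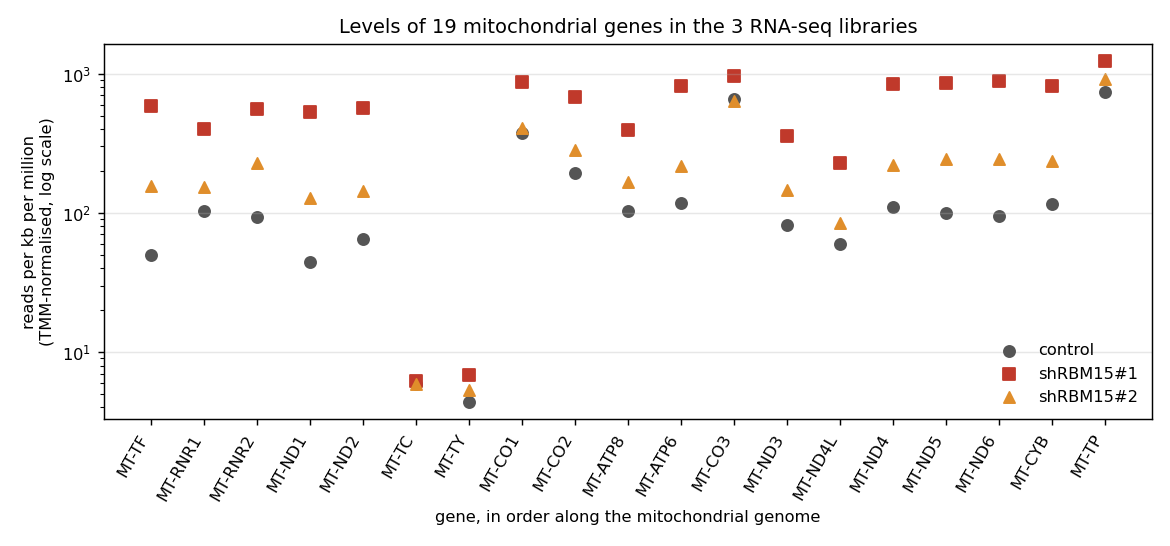
Levels in RPKM (TMM-normalised, log axis) are plotted for the 19 tested genes in genome order, with grey circles for the control, red squares for shRBM15#1 and orange triangles for shRBM15#2. The red squares of MT-ND4, MT-ND5, MT-ND6 and MT-CYB lie in a narrow band that also holds that of MT-CO1. MT-TC and MT-TY lie far below the other genes in every library.

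The 2 rRNAs form the cores of the small and the large mitochondrial ribosomal subunit. MT-RNR1 (MT:648-1601), of the small subunit, had 4895 reads in the control, 17085 in shRBM15#1 and 7617 in shRBM15#2, or 3.86-fold and 1.48-fold more. MT-RNR2 (MT:1671-3229), of the large subunit, had 7242, 38676 and 18542 reads, or 5.90-fold and 2.43-fold more, and its log2 fold change was 2.06 ± 0.48 (SE, adjusted p = 0.077 from edgeR's quasi-likelihood test). The large-subunit rRNA was at 0.905 times the level of the small-subunit rRNA in the control, 1.39 times in shRBM15#1 and 1.49 times in shRBM15#2. In the control the rRNAs, at 104 and 93.9 RPKM, lay below MT-CO1, MT-CO2, MT-CO3, MT-ATP6, MT-CYB and MT-ND4. There MT-RNR2 was also below MT-ATP8, MT-ND5 and MT-ND6. The sources used here do not state how rRNA was treated in these libraries.

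The tRNA genes had few reads, and 98.6% of them in the control, 99.2% in shRBM15#1 and 98.8% in shRBM15#2 fell on MT-TF and MT-TP. MT-TF had 175 reads in the control, 1859 in shRBM15#1 and 577 in shRBM15#2, or 11.7-fold and 3.13-fold more (log2 fold change 2.89 ± 0.71, SE, adjusted p = 0.094 from edgeR's quasi-likelihood test). MT-TP had 2479, 3756 and 3244 reads, or 1.67-fold and 1.24-fold more, with a log2 fold change of 0.54 ± 0.26. The level of MT-TP was 14.8 times that of MT-TF in the control, 2.11 times in shRBM15#1 and 5.87 times in shRBM15#2. Mature tRNAs and longer RNAs that contain them cannot be told apart in these counts.

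MT-TC had 19 reads in the control, 18 in shRBM15#1 and 20 in shRBM15#2, and MT-TY had 14, 20 and 18. These counts were close in all 3 libraries, with log2 fold changes of 0.03 ± 0.74 and 0.48 ± 0.79. The other 18 tRNA genes did not pass the filter: 11 had no read in any library, and 7 had between 1 and 5 reads over all libraries. Together these 18 had 4, 7 and 10 reads in the control, shRBM15#1 and shRBM15#2 libraries. For counted reads alone, a count of 0 allows up to 0.0564 CPM in the control, 0.0721 in shRBM15#1 and 0.0572 in shRBM15#2. This comes from a limit of 3 reads and covers counting error only. It sets no limit on the RNA level. Most of these short genes touch or nearly touch their neighbours, and reads that span neighbouring genes may be counted for none of them. MT-TT, whose gene ends next to MT-TP, had 0, 2 and 1 reads. Each count file also has a line of ambiguous reads, with 1063776 reads in the control, 1010987 in shRBM15#1 and 1105337 in shRBM15#2, and the sources used here do not say how many of these lie on mitochondrial DNA.

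Nuclear copies of mitochondrial DNA can take reads from the genes themselves. A block on chromosome 1 (GRCh37) holds 7 such pseudogenes, copies of genes between MT-ND1 and MT-CO3, that were 97.5% to 99.4% identical to their mitochondrial gene over the aligned bases. MTATP6P1 (1:569122-569755), with 9 mismatches over 634 aligned bases, had 462 reads in the control, 2901 in shRBM15#1 and 1191 in shRBM15#2. This is 11.1%, 11.2% and 14.2% of the reads on it and MT-ATP6 together. MTND1P23 had 312, 1618 and 620 reads and MTND2P28 had 224, 1547 and 477. MTCO1P12 had 298, 363 and 275 reads, MTCO3P12 had 110, 191 and 157, MTCO2P12 had 66, 172 and 107, and MTATP8P1 had 15, 29 and 12.

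As among the mitochondrial genes, the ATP6, ND1 and ND2 copies had larger folds with shRBM15#1 than the CO1 and CO3 copies. The log2 fold changes with shRBM15#1 were 2.79 for MTATP6P1, 2.52 for MTND1P23 and 2.93 for MTND2P28, against 0.43 for MTCO1P12 and 0.94 for MTCO3P12. Reads of near-identical copies could have been split between the places, so the counts of the genes from MT-ND1 to MT-CO3 are uncertain. When the copies were added to their genes, again 0 of the 19 genes were called. Of 36 pseudogene copies of mitochondrial genes that could be tested anywhere in the nuclear genome, none passed an adjusted p under 0.01 by edgeR, and at an unadjusted p under 0.05, 4 were higher and 1 was lower, shares near and below those of all genes (9.61% and 9.17%).

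The nuclear genes that transcribe mitochondrial DNA and process, stabilise or degrade its RNA had smaller median differences. Of 58 such genes tested, 0 passed an adjusted p under 0.01 by edgeR's quasi-likelihood test, against 0.346% of all genes, and at an unadjusted p under 0.05, 6 were higher and 6 were lower, near the 9.61% and 9.17% of all genes. Of the 10211 genes whose reads added up to 1000 or more, 621 were higher and 1677 lower at that unadjusted limit. The median log2 fold change of the 58 genes was 0.16, and 0.07 in shRBM15#1 and 0.23 in shRBM15#2 alone. Among the members with at least 300 reads summed, the largest values were those of TRMT10C, a subunit of the enzyme that cuts the 5’ ends of mitochondrial tRNAs, at 1.06 ± 0.24 (SE), and MTO1, which modifies mitochondrial tRNAs, at -1.04 ± 0.22. TRMT10C had 2522 reads in the control, 4523 in shRBM15#1 and 5812 in shRBM15#2, and MTO1 had 10701, 4292 and 5951. Their adjusted p were 0.071 and 0.061 by edgeR's quasi-likelihood test. MRM3, an rRNA methyltransferase, was at 0.94 ± 0.25, and ESRRA, a nuclear receptor that acts on genes of energy metabolism, at -0.92 ± 0.28, with adjusted p of 0.11 and 0.15 in the same edgeR test. In these 4 genes both lines lay on the same side of the control.

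Among 17 genes for transcription and replication of mitochondrial DNA, the median log2 fold change was 0.22, and 11 were higher and 4 lower in both lines. Among 17 genes for RNA processing, tRNA modification and polyadenylation it was 0.28, with 10 higher and 6 lower in both lines. Among 16 genes for RNA stability and decay it was 0.16, with 8 higher and 6 lower. The 8 nuclear regulators of mitochondrial genes had a median of -0.05, with 1 higher and 4 lower. Of all 24887 genes tested, 9890 (39.7%) were higher and 9842 lower in both lines. Of the 10211 genes whose reads added up to 1000 or more, 2849 (27.9%) were higher and 5390 lower in both lines. PPARGC1A, the coactivator known for its part in forming new mitochondria, had only 19, 60 and 42 reads in the control, shRBM15#1 and shRBM15#2 libraries, and is named after its values were seen.

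The nuclear subunits of the same respiratory complexes differed in median from the mitochondrial ones. Of 79 nuclear genes of complexes I to V, none passed an adjusted p under 0.01 by edgeR, 6 were higher and 2 lower at an unadjusted p under 0.05 (9.61% and 9.17% of all genes), and the median log2 fold change was 0.04. For complex I alone the median was 0.04 over 37 nuclear genes, beside 2.46 over the 7 mitochondrial genes, and for complex IV -0.02 over 13 nuclear and 0.76 over 3 mitochondrial genes. In the single lines, the nuclear complex I genes had medians of -0.15 in shRBM15#1 and 0.18 in shRBM15#2, beside 3.12 and 1.14 for the mitochondrial ones. Of the 79 nuclear genes, 7 had a higher value with shRBM15#1 than with shRBM15#2, whereas all 13 mitochondrial mRNAs did. The share was 51.7% over all genes tested. It was 29.4% over those whose reads added up to 1000 or more, as the reads of most of the 79 did. NDUFB3, an accessory subunit of complex I, had 2716 reads in the control, 4053 in shRBM15#1 and 5610 in shRBM15#2 (log2 fold change 0.85 ± 0.24, SE, adjusted p = 0.13 from edgeR's quasi-likelihood test). The 76 nuclear genes of mitochondrial ribosomal proteins had a median of 0.17, with 0 called by edgeR. At an unadjusted p under 0.05, 5 were higher and 2 lower, below the shares of all genes. Of the 10211 genes whose reads added up to 1000 or more, 621 were higher and 1677 lower at that limit. Among the ribosomal protein genes MRPS12 (0.89 ± 0.26) and MRPS7 (0.83 ± 0.23) differed most. These medians were not compared by a test.

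The RIP-seq experiment of the series, which sequenced RNA bound to RBM15, gave a deposited list of 1515 significant sites. None of these sites lies on the mitochondrial chromosome. Per the study's methods, read coverage was profiled over all chromosomes, and whether these included the mitochondrial one is not spelled out. The list does not tell how much mitochondrial RNA was bound.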

How the data were processed

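RNA was sequenced from 3 MEG-01 cultures, 1 control and 2 RBM15 knockdown lines. The reads were paired-end without strand information, and the authors mapped them with STAR to GRCh37. They deposited unnormalised counts for each exon bin. The submitters' processing notes also list HTSeq 0.6.0, Picard 1.126 and bedtools 2.17.0. The sources used here do not tie a program to the counting. The deposited DEXSeq table gave bin positions (809 wrapped lines were left out). Its counts equalled those of the count files in all 625148 bins, and its fold changes and p-values, the authors' own comparison, were not used. Of the deposited RIP-seq list only the chromosome names were used.

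Bin counts were summed per gene and tested with edgeR 4.0.16 in R 4.3.3, with TMM factors of 0.931, 1.08 and 0.996 for the control, shRBM15#1 and shRBM15#2 libraries. A single line was compared with the control on the same factors. Genes with fewer than 30 reads over the libraries were not tested. The lines of each count file that name no gene, 23.2%, 32.0% and 23.5% of its summed counts, entered no library size. p-values were adjusted by the Benjamini-Hochberg method over all genes tested. The test was checked on simulated data. Alternatives used DESeq2 1.42.0, other normalizations and filters. Symbols came from GENCODE lifted to GRCh37 and were found for 54481 of 62238 genes. Sequences and identities were read from that genome with Biopython 1.88, and figures used Python 3.11.15.

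All mitochondrial genes are described. Nuclear genes named are RBM15, the pseudogene block, the 4 largest absolute changes with at least 300 reads in the list for mitochondrial RNA and the 2 largest in each other list, of which 1 gene is not reported here. PPARGC1A is named outside this rule, and cell type markers are named from their list. Members and lists were chosen with earlier results of these data known, and the olfactory receptor genes after seeing the data.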

Additional observations from a re-analysis of the deposited data

Results flagged for a closer look

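Among the mitochondrial genes, MT-CO3 and MT-TC had values of opposite sign in the 2 knockdown lines. MT-CO3 had a log2 fold change of 0.56 with shRBM15#1 and -0.059 with shRBM15#2. MT-TC, with 18 to 20 reads a library, had 0.066 and -0.0024, both close to 0. The difference between the lines was not tested, since each line has 1 library.

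Reads outside the exon bins, which entered no comparison, were above the 21.6% of the control in both lines, at 30.4% with shRBM15#1 and 21.9% with shRBM15#2. Reads on olfactory receptor genes were above the 18.0 CPM of the control as well, at 59.5 with shRBM15#1 and 31.1 with shRBM15#2. This rank of the libraries is that of the mitochondrial share, and its part in the mitochondrial result was not tested.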

How the results depend on the processing

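No paired analysis was possible because the groups share only 1 replicate number and there is 1 control library. Of the 19 mitochondrial genes, 0 were called at an adjusted p under 0.01 with RLE size factors, normalization from nuclear genes, a minimum count of 300, added pseudogene copies or DESeq2. MT-TC and MT-TY were not tested with the minimum count of 300, and DESeq2 gave them no adjusted p. Without the filter on low counts 11 were called (MT-ND1 to MT-ND6 without MT-ND4L, MT-CYB, MT-ATP6, MT-TF, MT-RNR1 and MT-RNR2), and the cause was not tested. At an unadjusted p under 0.05, a limit chosen after seeing the data, 14 passed. Without the filter 1 of the 58 genes of the list for mitochondrial RNA and 3 of the 36 nuclear pseudogene copies were called, against 0 with it and 1.5% of all genes without it. The median log2 fold change of the mRNAs lay between 1.96 and 2.30 under the other tests, and between 0.93 and 2.84 when a line was left out. The mitochondrial share with all reads of the file as denominator was 0.163%, 0.725% and 0.270% in the control, shRBM15#1 and shRBM15#2 libraries, and that of mRNAs alone, of reads on bins other than mitochondrial rRNA and tRNA, 0.185%, 0.920% and 0.296%. Of 150 single-gene values under alternatives 148 kept their direction. MT-TC was at -0.10 without the filter, and MT-CO3 between -0.0092 and 0.62 when a line was left out.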
